A study of Mus musculus with 8 samples.

Results

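The comparison described here sets Ba/F3 cells carrying a FLT3 receptor that has an internal tandem duplication (FLT3/ITD) against Ba/F3 cells that carry wild type FLT3, both without the chemokine Cxcl12. Ba/F3 is a mouse pro-B cell line that needs IL3 to grow. The labels give the members of the comparison, 4 of the study's 8 arrays, as those without Cxcl12, 2 of each kind of cell. The wild type FLT3 group had replicates 1 and 2, and the FLT3/ITD group had 1 array of an ITD named N51 and 1 of an ITD named N78. Cells of every group were grown with IL3 at 0.1 ng/ml, washed in plain medium and then held for 4 h in medium with albumin before total RNA was taken. The other 4 arrays are the same cells with Cxcl12 at 100 ng/ml during those 4 h, and they served to estimate the spread and as a second setting of the same comparison. Each of 2 slides held 1 array of each group, so every difference was also read within a slide. N51 lay on slide 1 and N78 on slide 2, and ITD type and slide cannot be told apart. A group always took the same place on its slide, so group and array position cannot be told apart either. The labels do not say that replicates were separate cultures or clones, and the p-values then measure only the spread between these samples.

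FLT3 is a receptor tyrosine kinase of early blood progenitors that normally waits for its ligand. An internal tandem duplication in its juxtamembrane region, found in acute myeloid leukaemia, switches the kinase on without ligand. The duplicated form is known to activate STAT5, RAS and PI3K signalling, and STAT5 in turn drives genes such as Pim1, Cish, Socs1 and Bcl2l1. In Ba/F3 cells it replaces the need for IL3, while cells with wild type FLT3 that are held without IL3 or FLT3 ligand have no such signal.

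All levels below are log2 intensities from which the 75th percentile of the array was subtracted, so that a level of 0 is a probe as bright as that percentile and a difference of 1 is 2-fold. Between 49.8% and 55.0% of the 41174 probes were well above background on the 4 arrays. The array's mouse Flt3 probe was above background on the slide 2 arrays alone, at -3.86 in wild type FLT3 and -4.50 in FLT3/ITD cells. Whether it reads the introduced receptor is not given in the sources used here, so the labels could not be checked with it. Of 16 pro-B cell markers 7 were measured, all 7 above background on all 4 arrays, among them Cd79a, Cd79b, Vpreb1 and Ptprc. Defining pro-B genes such as Pax5, Ebf1 and Rag1 were not well above background on both arrays of any group, and Cma1, a chymase of mast cells, had a level of 7.83 and 7.60 in the wild type FLT3 cells. The 7 pro-B markers had a median difference of -0.21 and none passed the test. In bulk RNA, fewer cells of a type and less RNA per cell cannot be told apart.

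FLT3/ITD cells had more mRNA of the serpin Serpina3g, the lymphocyte receptor Slamf1 and the lysozyme Lyz2. They had less of a set of mast cell and basophil proteases (Mcpt8, Mcpt4, Cma1, Cma2), of cathepsin G (Ctsg), of the aldehyde dehydrogenases Aldh1a1 and Aldh1a7 and of the fungal receptor Clec7a. Of 13848 features (12086 named genes and 1762 transcripts with no gene name), 69 passed the test, which is 0.498%. Passing means a limma adjusted p below 0.05, and only such features are said to have risen or fallen. Of the 69, 38 rose (0.274% of the features) and 31 fell (0.224%), and 46 were above background on all 4 arrays. All 69 differed in the same direction on both slides, which the test favours. At an unadjusted p under 0.05 there were 841 higher and 859 lower features. The count depends on the slide as a block: without it no feature passed, and 223 had an unadjusted p under 0.05. Without the N51 array 9 features passed, without the N78 array 14, without wild type FLT3 replicate 1 29 and without replicate 2 23. With arrays scaled by their medians, 136 features were higher and 42 lower (76.4% higher, against 55.1%), and the median difference of all features moved from -0.05 to 0.19. All 69 kept their direction there.

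**Figure D1:**
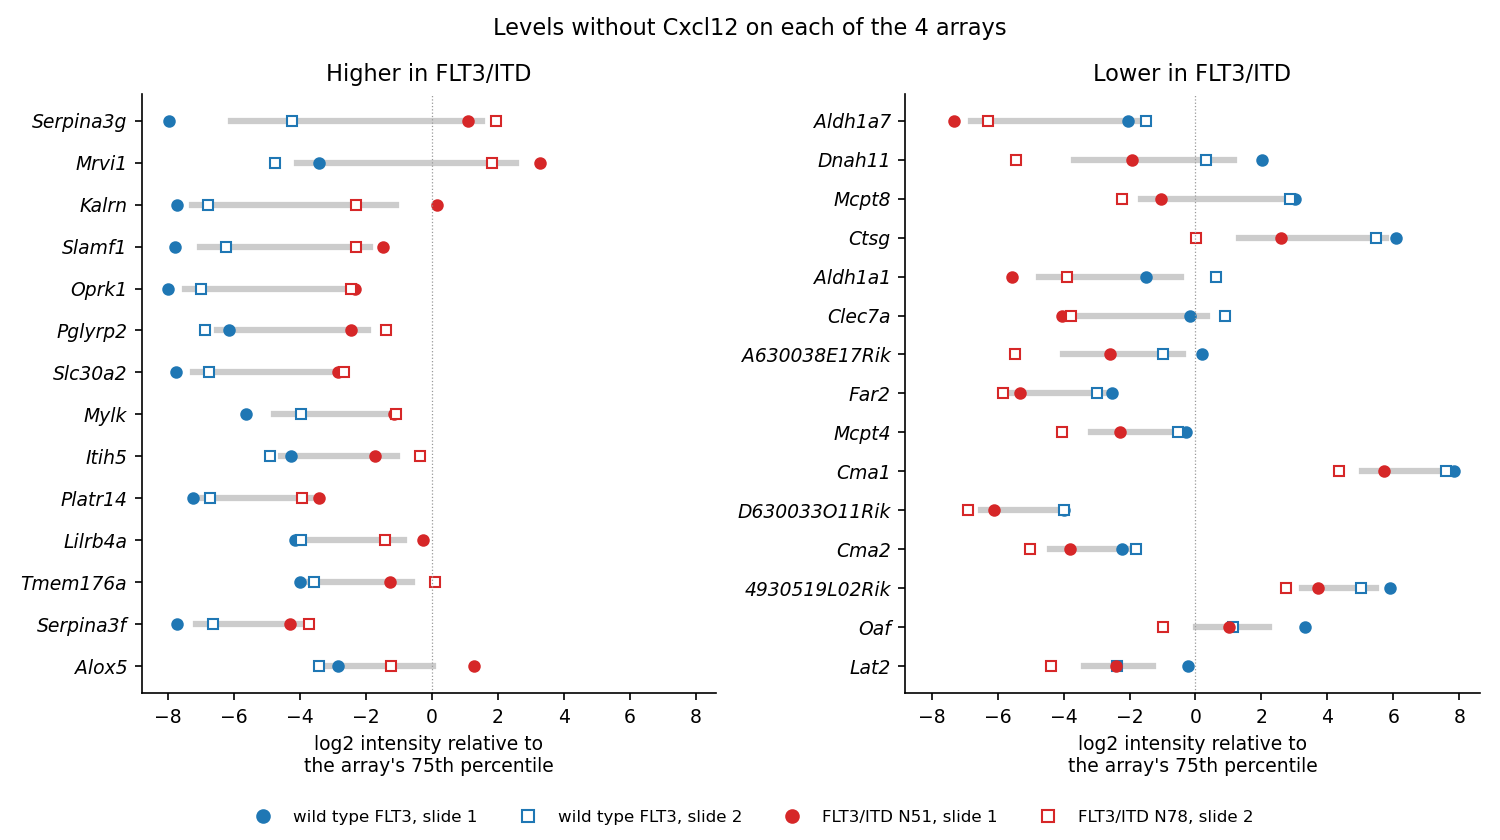
Level of 14 of the 15 named genes with the largest rise (left) and the 15 with the largest fall (right) on each of the 4 arrays without Cxcl12, on the scale of the text. Circles are slide 1 (N51), squares slide 2 (N78), and the grey bar joins the group means. Some low points, such as Kalrn in wild type FLT3 cells, were not well above background and are drawn at their measured value. Within each slide the FLT3/ITD point lies on the same side of the wild type point for all 29 genes drawn.

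The changed genes are grouped below by their known roles, a grouping that was not tested. Of the 21 measured cytokine receptors and kinases, 15 had a negative difference (median -0.27, against -0.05 over all features). Over all features 45% had a positive difference, so sign counts of lists are to be read beside that share. The beta chains of the IL3 receptor, which Ba/F3 cells use for growth, had values that did not pass: Csf2rb -0.56 (SE 0.19, adjusted p = 0.308) and Csf2rb2 -0.62 (SE 0.18, adjusted p = 0.222). Jak2 was at -0.05, Stat5a at -0.01 and Stat5b at -0.34. Other probes of these genes differed: Csf2rb had 0.06 (0.82 with N51 and -0.71 with N78) and -0.75, Stat5b 0.20 and Jak2 -0.45. Parts of the interleukin 12 family were among the smaller rises. Ebi3, a subunit of IL27 and IL35, rose by 1.79 (SE 0.24, adjusted p = 0.0186), from levels of 0.77 and 0.97 to 2.54 and 2.78. Il12rb1, a chain of the receptors for IL12 and IL23, rose by 1.36 (SE 0.22, adjusted p = 0.0415).

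Among receptors coupled to G proteins F2r, F2rl2 and Oprk1 rose. F2r, the thrombin receptor PAR1, was at 5.31 and 4.22 in wild type FLT3 and 7.02 and 5.97 in FLT3/ITD cells. Its rise of 1.73 (SE 0.17, adjusted p = 0.00477) was nearly the same on both slides, at 1.70 and 1.75. F2rl2, the related receptor PAR3 next to it on chromosome 13, rose by 1.96 (SE 0.25, adjusted p = 0.0147), from -3.04 and -2.93 to -1.14 and -0.91. The probes of F2r (96371902 to 96371961, mm9) and F2rl2 (96471885 to 96471944) shared 21 of 60 bases at their best ungapped match. Oprk1, the kappa opioid receptor, was at -2.33 and -2.46 in FLT3/ITD cells and not well above background in wild type FLT3 cells, a difference of at least 7.05-fold (limma adjusted p = 0.0147). Such bounds compare the group's mean with the lowest signal that counted as above background on the dim arrays. They hold for the main processing only. In alternative analyses the fitted differences went as low as 1.52 for Oprk1, 1.63 for Slamf1, 2.47 for Kalrn and 0.38 for Serpina3f (log2).

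Surface receptors of immune cells changed in both directions. Slamf1 (CD150), a self-ligand receptor of lymphocytes and stem cells, was at -1.47 in N51 and -2.29 in N78 cells and not well above background in wild type FLT3 cells. It was at least 10.0-fold higher (limma adjusted p = 0.0126). Lilrb4a, an inhibitory receptor of myeloid and mast cells, rose by 3.22 (SE 0.42, adjusted p = 0.0158), from -4.14 and -3.98 to -0.28 and -1.41. Clec7a (dectin-1), which binds beta-glucan, fell by 4.28 (SE 0.39, adjusted p = 0.00395), from -0.18 and 0.89 to -4.06 and -3.79. Its FLT3/ITD arrays both lay far below the wild type FLT3 arrays. Fcgr2b, the inhibitory receptor for IgG, fell by 2.02 (SE 0.34, adjusted p = 0.0479), from 3.1 and 1.24 to 0.71 and -0.41. Cd200r3, a basophil and mast cell receptor of the CD200 receptor family, fell by 1.76 (SE 0.26, adjusted p = 0.0296), from 1.5 and 0.07 to 0.10 and -2.03. Of 17 measured SLAM and immune signalling receptors 1 rose and 3 fell, with a median of -0.04 against -0.05 over all features. The other SLAM family members gave values that did not pass, such as Cd48 at 0.52, Cd84 at -0.55 and Ly9 at -1.62. Lat2, an adaptor of mast cell and B cell receptor signalling, fell by 2.09 (SE 0.32, adjusted p = 0.0325), while its other probe had -1.01 (-1.66 with N51 and -0.35 with N78). The T cell and mast cell adaptor Lat had 1.88 (SE 0.38, adjusted p = 0.0937), which did not pass. Sla2, an adaptor that dampens receptor signalling, rose by 2.02 (SE 0.25, adjusted p = 0.0147), while its other probe, above background on all 8 arrays, had 0.55 (1.02 with N51 and 0.07 with N78). Ptprcap, a protein bound to CD45, rose by 2.78 (SE 0.45, adjusted p = 0.0431).

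Serpins, a family of protease inhibitors, were among the rises. Serpina3g was at -7.96 and -4.24 in wild type FLT3 cells and at 1.1 and 1.95 in N51 and N78 cells. Only replicate 2 of the wild type FLT3 arrays was well above background, so the size of the 7.62 rise (SE 0.70, adjusted p = 0.00395) is uncertain. Its neighbour Serpina3f on chromosome 12 was at -4.29 and -3.72 in FLT3/ITD cells and not well above background in wild type FLT3 cells, at least 2.31-fold higher (limma adjusted p = 0.0255). The probes of Serpina3g (105480045 to 105480104, mm9) and Serpina3f (105458565 to 105458624) matched at 21 of 60 bases at best. A serpin of another clade, Serpinb6b on chromosome 13, rose by 2.72 (SE 0.37, adjusted p = 0.0186), with 1 wild type FLT3 array above background. The 250 bases before the starts of Serpina3g and Serpina3f are shown because this pair of neighbours moved together and each holds the letters TTCNNNGAA, the core of STAT sites. The same window of Mrvi1, the gene with the lowest adjusted p, holds AGATAA, a motif bound by the factor Gata2 and its relatives. The sequences are from RefSeq (GRCm38.p6), 5′ to 3′ on the gene's strand, with the motif in capitals.
Serpina3g (chr12:104235897-104236146, plus strand): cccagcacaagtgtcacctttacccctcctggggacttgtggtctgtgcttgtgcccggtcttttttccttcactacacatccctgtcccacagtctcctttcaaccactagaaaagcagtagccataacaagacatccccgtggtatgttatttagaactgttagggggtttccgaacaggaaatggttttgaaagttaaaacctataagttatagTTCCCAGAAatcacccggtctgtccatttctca
Serpina3f (chr12:104214294-104214543, plus strand): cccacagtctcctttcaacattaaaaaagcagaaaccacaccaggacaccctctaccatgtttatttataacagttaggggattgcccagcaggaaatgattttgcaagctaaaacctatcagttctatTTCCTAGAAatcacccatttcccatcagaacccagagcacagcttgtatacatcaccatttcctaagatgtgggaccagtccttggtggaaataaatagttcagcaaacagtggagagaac
Mrvi1 (chr7:110982462-110982711, minus strand): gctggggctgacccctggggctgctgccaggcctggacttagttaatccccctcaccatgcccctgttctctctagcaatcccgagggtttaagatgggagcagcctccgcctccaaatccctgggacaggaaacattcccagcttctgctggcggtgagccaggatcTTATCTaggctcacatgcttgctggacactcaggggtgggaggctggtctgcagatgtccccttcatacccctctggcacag
Both motifs were picked after the genes were known and searched on both strands, where TTCNNNGAA reads the same. No overlap between them occurred in these windows. TTCNNNGAA was present for 2 of the 29 genes that rose and have a promoter in the table (6.90%), 1 of the 23 that fell (4.35%) and 569 of 9466 tested genes (6.01%). AGATAA was present for 5 of 29 (17.2%), 4 of 23 (17.4%) and 604 of 9466 (6.38%). These are matches of letters, not binding sites.

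Mrvi1, Kalrn and Mylk, with roles in calcium release and the cytoskeleton, were among the rises. Mrvi1 (Irag1), a partner of the IP3 receptor in calcium release, was at -3.43 and -4.77 in wild type FLT3 cells and at 3.27 and 1.82 in N51 and N78 cells. The rise of 6.65 (SE 0.38, adjusted p = 0.000505) had the lowest adjusted p of all features, with 1 of the 2 wild type FLT3 arrays above background. Kalrn, an exchange factor for small GTPases, was at 0.14 in N51 and -2.31 in N78 cells and not well above background in wild type FLT3 cells. It was at least 17.5-fold higher (limma adjusted p = 0.0126). Mylk, the myosin light chain kinase, lies near Kalrn on chromosome 16 and rose by 3.67 (SE 0.58, adjusted p = 0.0415), from -5.63 and -3.96 to -1.14 and -1.10. Podxl, a sialomucin of blood progenitors and endothelium, rose by 1.95 (SE 0.25, adjusted p = 0.0147), from -2.15 and -1.91 to -0.16 and 0.00. The FLT3/ITD arrays lay above the wild type FLT3 arrays for both. Of 16 other adhesion molecules on a list none passed, at a median of 0.18. The values ran from -1.91 for Itga4, the alpha chain of VLA-4 (adjusted p = 0.100), to 1.89 for Itgb3 (adjusted p = 0.213). The other Itgb3 probe, above background on all 8 arrays, had -0.26 (-0.72 with N51 and 0.19 with N78). The other Itga4 probes had -2.51 to -2.66.

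Lyz2, Alox5, C3, Pglyrp2 and Relb, genes of innate immune cells, were among the rises. Lyz2, the lysozyme of macrophages, rose by 2.28 (SE 0.30, adjusted p = 0.0178), from -3.19 and -2.43 to -1.35 and 0.28. Alox5, the lipoxygenase that starts leukotriene synthesis, rose by 3.16 (SE 0.50, adjusted p = 0.0415), from -2.86 and -3.43 to 1.28 and -1.25. C3, the central complement component, rose by 1.45 (SE 0.24, adjusted p = 0.0458), from 1.20 and -0.32 to 2.32 and 1.45. The C3 arrays show the offset between slides: 1 FLT3/ITD array at 1.45 lay close to a wild type FLT3 array at 1.20, while the differences within a slide were 1.12 and 1.77. Pglyrp2, an enzyme that cuts bacterial peptidoglycan, was not well above background in wild type FLT3 cells and at -2.45 and -1.40 in FLT3/ITD cells, at least 9.71-fold higher (limma adjusted p = 0.00477). The interferon-inducible GTPase Ifi47 was at least 3.32-fold higher (limma adjusted p = 0.0487), though none of 20 interferon-stimulated genes on a list that lacks it passed (median 0.25). Tmem176a and Tmem176b, adjacent genes on chromosome 6 for cation channels of antigen-presenting cells, rose by 3.21 (SE 0.42, adjusted p = 0.0165) and 2.92 (SE 0.26, adjusted p = 0.00395). Cx3cl1, the membrane-bound chemokine fractalkine, rose by 2.17 (SE 0.29, adjusted p = 0.0186). Relb, a subunit of NF-kB, rose by 1.69 (SE 0.24, adjusted p = 0.0223), from -2.13 and -1.89 to -0.59 and -0.05. It was the 1 of 16 NF-kB targets that passed, and 12 of the 16 had a positive difference, as did 45% of all features (median 0.42).

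The remaining rises were in metabolism and transport or had less defined roles. Slc30a2, a zinc transporter, was at -2.85 and -2.67 in FLT3/ITD cells and not well above background in wild type FLT3 cells, at least 5.46-fold higher (limma adjusted p = 0.0147). Cat, the catalase that removes hydrogen peroxide, rose by 1.31 (SE 0.21, adjusted p = 0.0435), from 0.25 and 0.51 to 1.41 and 1.98. Gstm2, a glutathione transferase, rose by 1.41 (SE 0.24, adjusted p = 0.0493). Itih5, an inter-alpha-trypsin inhibitor heavy chain, rose by 3.54 (SE 0.51, adjusted p = 0.0249), with 1 wild type FLT3 array above background. The long noncoding RNA Platr14 was at least 2.90-fold higher (limma adjusted p = 0.0265). Nek6 (a mitotic kinase), Fhit, Nlrp10, Echdc3, Slc24a5 and Med12l rose by 1.28 to 2.40, Med12l with 1 wild type FLT3 array above background. TC1610785, a transcript with no gene name whose probe lies on chromosome 1 (59692993 to 59693052, mm9), was at least 14.3-fold higher (limma adjusted p = 0.0147).

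The fall with the most members was that of serine proteases of mast cell and basophil granules. Cma1, the mouse alpha-chymase, was at 7.83 and 7.60 in wild type FLT3 cells and at 5.73 in N51 and 4.35 in N78 cells. It fell by 2.68 (SE 0.34, adjusted p = 0.0153). Ctsg (cathepsin G), a granule protease of neutrophils and mast cells, went from 6.09 and 5.49 to 2.60 and 0.03. It fell by 4.48 (SE 0.68, adjusted p = 0.0325). Both FLT3/ITD arrays lay below both wild type FLT3 arrays for each. Mcpt8, the protease that marks mouse basophils, fell by 4.59 (SE 0.38, adjusted p = 0.00303), from 3.01 and 2.88 to -1.05 and -2.23, and kept its call in 18 of 21 alternative analyses. Mcpt4, a chymase of connective tissue mast cells, fell by 2.75 (SE 0.38, adjusted p = 0.0211), from -0.30 and -0.54 to -2.29 and -4.05. Cma2 fell by 2.40 (SE 0.40, adjusted p = 0.0487), with 1 of 2 FLT3/ITD arrays above background, and lost its call in 15 of 20 alternative analyses. For these 5 genes the fall was larger with N78 than with N51, for example 5.46 against 3.49 for Ctsg, a difference that was not tested. All 5 sit in 1 stretch of chromosome 14, from Cma1 (probe at 56560454 to 56560513, mm9) to Ctsg (56718795 to 56718854). Mcpt1, Mcpt2 and Mcpt9, which lie between them, were not among the features tested. The measured genes that flank it did not pass: Khnyn had -0.95 (adjusted p = 0.289) and Sdr39u1 0.31 (adjusted p = 0.579) on the Cma1 side. On the Ctsg side Gzmb (granzyme B), the last measured gene of the cluster, went opposite ways, 2.12 higher with N51 and 2.57 lower with N78, with an SE of 1.18 for its fitted difference.

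The windows before the starts of Mcpt8 and Ctsg, the members of this stretch that fell most, are given for the same reading (RefSeq, GRCm38.p6, 5′ to 3′, with TTCNNNGAA in capitals). Ctsg is the 1 of the 23 genes that fell with TTCNNNGAA in the window, and Mcpt8 holds neither motif there.
Ctsg (chr14:56102575-56102824, minus strand): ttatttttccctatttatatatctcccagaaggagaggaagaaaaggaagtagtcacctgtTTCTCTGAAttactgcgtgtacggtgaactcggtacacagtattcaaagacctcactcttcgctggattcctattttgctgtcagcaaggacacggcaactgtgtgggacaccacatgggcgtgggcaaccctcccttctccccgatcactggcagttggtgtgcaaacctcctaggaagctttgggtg
Mcpt8 (chr14:56085198-56085447, minus strand): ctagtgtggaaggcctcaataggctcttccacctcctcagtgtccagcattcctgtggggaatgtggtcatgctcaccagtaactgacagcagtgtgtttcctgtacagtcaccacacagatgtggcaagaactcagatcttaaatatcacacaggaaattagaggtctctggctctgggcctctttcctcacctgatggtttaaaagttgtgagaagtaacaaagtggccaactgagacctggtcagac

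Set against the marker list of mast cells and basophils, 5 of 12 measured genes fell (Mcpt8, Mcpt4, Cma1, Cma2 and Cd200r3), none rose and the median was -1.22. Other defining genes of these cells did not pass. Gata2, a transcription factor of mast cells and progenitors, went from 6.72 and 5.47 to 6.27 and 4.60 (adjusted p = 0.267), and the IgE receptor chain Ms4a2 had -0.72 (adjusted p = 0.495). Hdc, which makes histamine, had -1.71 (adjusted p = 0.348), and the granule protease Prss34 -0.09 (adjusted p = 0.924). Mitf, at 0.70 (-0.01 by its other probe), was the 1 gene of the 12 with a positive difference. Cpa3 had 0.86 with N51 and -1.98 with N78. Tpsab1, Tpsb2, Kit, Mcpt1 and Mcpt2 were not well above background on both arrays of any group. The summed level of the 12 genes, in units of the array's 75th percentile, was 359 and 260 in wild type FLT3 cells and 135 and 52.4 in N51 and N78 cells. Without Cma1, which made up most of it in wild type FLT3 cells, it was 131 and 65.2 against 82.2 and 32.0. For eosinophil markers 5 of 11 were measured, with summed levels of 106 and 20.3 against 11.1 and 18.5, and none passed (median -2.13). The sums differed mainly on slide 1, and 3 of the 5 genes were lower on both slides. Prg2, the eosinophil major basic protein, was at 6.31 and 2.58 on slide 1 and at 3.32 and 2.79 on slide 2. For neutrophil markers 4 of 12 were measured, with sums of 75.9 and 52.8 against 6.89 and 9.53, and Ctsg was the 1 that fell. Without Ctsg the sums of the other 3 were 7.81 and 7.86 against 0.826 and 8.51, lower with N51 and not with N78. Myeloperoxidase (Mpo) did not pass, at 2.92 and 2.88 in wild type FLT3 and -0.94 and 2.95 in FLT3/ITD cells. Of 8 measured monocyte markers Lyz2 rose, and 4 had a positive difference (median 0.08). Their sums were 57.3 and 22.1 in wild type FLT3 against 53.4 and 12.7 in FLT3/ITD cells. Csf1r and Itgam were not well above background on both arrays of any group. None of 7 T and NK cell markers and none of 4 erythroid markers passed. The part of a change in cell type in the falls was not tested.

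Aldh1a1 and Aldh1a7, neighbouring genes for aldehyde dehydrogenases, both fell. Aldh1a1 makes retinoic acid and clears aldehydes. Aldh1a1 went from -1.49 and 0.61 to -5.57 and -3.90, a fall of 4.30 (SE 0.40, adjusted p = 0.00405), with 1 FLT3/ITD array above background. Aldh1a7 was at -2.05 and -1.50 in wild type FLT3 cells and not well above background in FLT3/ITD cells, at least 9.56-fold lower (limma adjusted p = 0.00303). Their probes on chromosome 19 (20717764 to 20717823 and 20767553 to 20767612, mm9) matched at 21 of 60 bases at best. Dnah11, a heavy chain of ciliary dynein, fell by 4.86 (SE 0.54, adjusted p = 0.0101), from 2.01 and 0.32 to -1.94 and -5.43. The N78 array was not above background for Dnah11. Far2, which makes fatty alcohols, was at least 4.86-fold lower (limma adjusted p = 0.0481).

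Further falls included a growth factor, a receptor kinase and enzymes of lysosomes. Csf1, the growth factor of macrophages (M-CSF), fell by 2.05 (SE 0.26, adjusted p = 0.0147), from 2.66 and 1.72 to 0.58 and -0.30. Its falls on the slides were 2.08 and 2.02. Mst1r (RON), the receptor kinase for macrophage stimulating protein, fell by 1.81 (SE 0.29, adjusted p = 0.0435), from 1.49 and -0.19 to -0.75 and -1.56. Lipa, the lysosomal acid lipase, fell by 1.93 (SE 0.25, adjusted p = 0.0153), from 2.29 and 2.15 to 0.54 and 0.03. Arsb, a lysosomal sulfatase, fell by 1.82 (SE 0.27, adjusted p = 0.0296), and Papss2, which makes the sulfate donor PAPS, by 1.85 (SE 0.31, adjusted p = 0.0475). The cell surface protease Adam8 fell by 1.52 (SE 0.22, adjusted p = 0.0255), from 5.79 and 3.98 to 4.18 and 2.55. Here the slide offset exceeds the difference, so the groups overlap across slides while both slides show a fall. Oaf, 4930519L02Rik, Plcd4, Slc23a3, Ints6l and Tbc1d19 fell by 1.36 to 2.23. Among genes and transcripts of unknown function, A630038E17Rik fell by 3.63 (SE 0.40, adjusted p = 0.00968), with the N78 array not above background, and AK042078 was at least 6.10-fold lower (limma adjusted p = 0.0186). D630033O11Rik was at least 2.05-fold lower (limma adjusted p = 0.0435), and AK030647, AK040074 and AK050605 fell by 2.26 to 2.66, the last with 1 FLT3/ITD array above background.

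STAT5 targets, the genes most tied to the duplicated receptor, had no member that passed. Of 13 measured, 11 had a positive difference and 9 were higher on both slides (24.3% of all features were), with a median of 0.68 against -0.05. Pim1, a kinase that promotes survival, was nearest, at -3.32 and -1.03 in wild type FLT3 and -0.35 and 0.39 in FLT3/ITD cells, a difference of 2.20 (SE 0.38, adjusted p = 0.0550). It passed (adjusted p = 0.0389) when the transcripts without a gene name were left out of the test, a choice made after its value was seen. Bcl2l1, the gene of the survival factor BCL-XL, had 1.59 (SE 0.31, adjusted p = 0.0891), from -1.23 and -0.78 to 0.57 and 0.60. Both FLT3/ITD arrays lay above both wild type FLT3 arrays for these, by the probes that stood for the genes. The other Bcl2l1 probes had 0.57 (1.07 with N51 and 0.07 with N78), where the groups overlapped, and 1.67 (2.38 and 0.97). Id1, an inhibitor of helix-loop-helix transcription factors, had 1.20 (SE 0.29, adjusted p = 0.149), with 1.78 on slide 1 and 0.62 on slide 2. The feedback inhibitors Socs1 and Cish were higher with N51 by 2.37 and 1.55, and differed by 0.63 and -0.19 with N78. Socs2 had 0.31, Socs3 -0.03, Pim2 0.09, Ccnd2 0.50 and Myc 0.68.

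**Figure D2:**
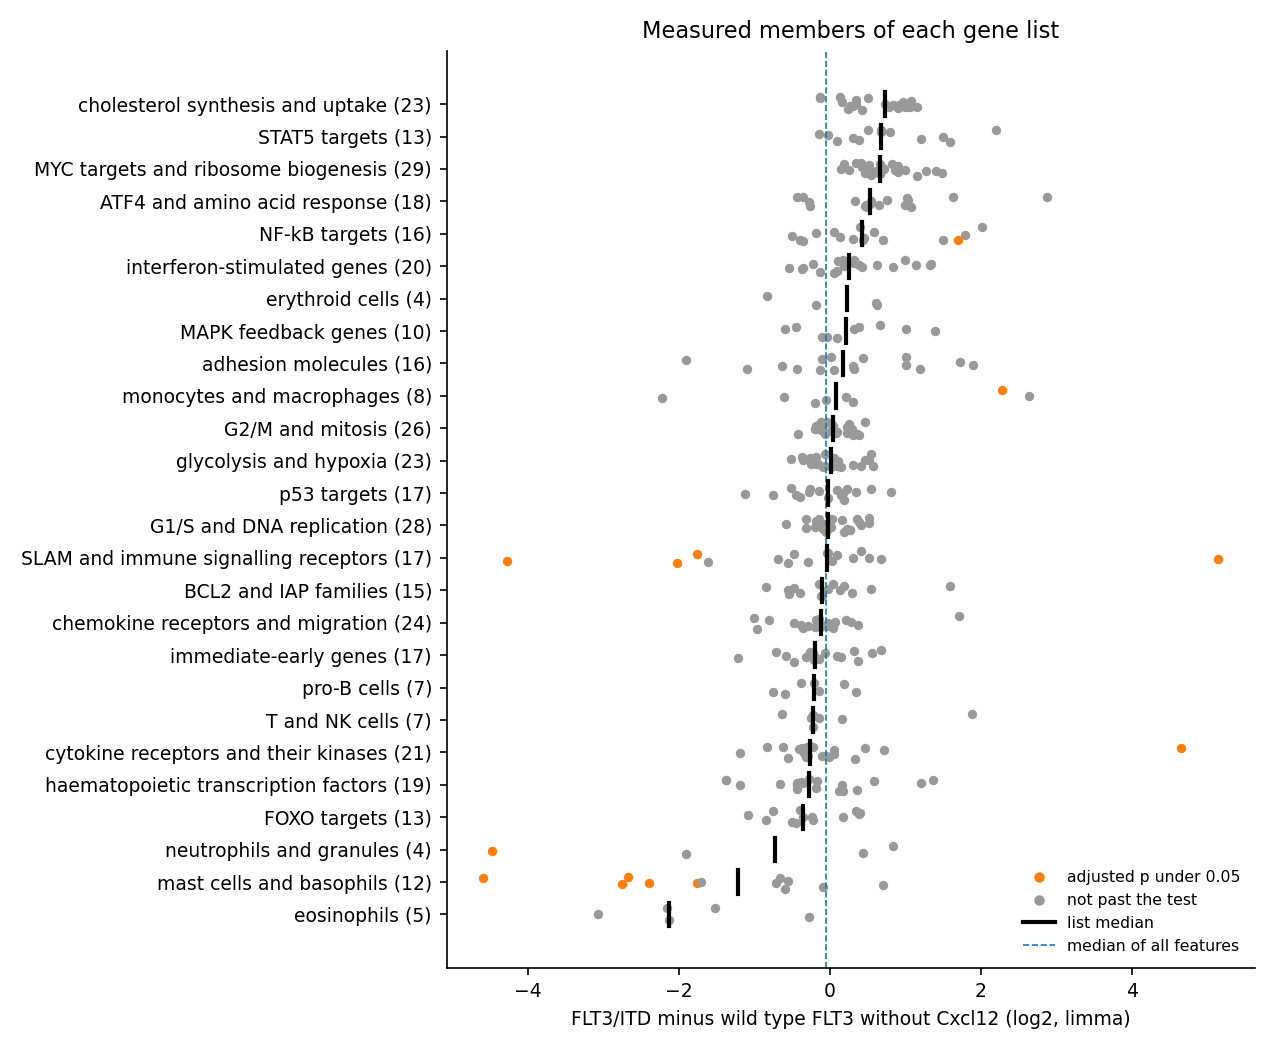
Difference between FLT3/ITD and wild type FLT3 cells without Cxcl12 (log2, limma) for each measured member of 26 gene lists, with the number measured in brackets. Points are genes (orange: past the test), black bars the list medians and the dashed line the median of all features at -0.05. Lists of cholesterol, STAT5 and MYC genes have medians of 0.66 to 0.73 with no gene past the test, and the mast cell list has 5 of 12 past it.

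Lists of growth metabolism had many small positive differences and no gene that passed. All 29 genes of MYC targets and ribosome biogenesis had a positive difference, 24 of the 28 with values on both slides were higher on both, and the median was 0.66 (0.36 with N51, 0.96 with N78). Examples are Srm, the spermidine synthase, at 1.48 (adjusted p = 0.196), and the rRNA processing factor Nolc1 at 1.16 (adjusted p = 0.149). Wdr74 lacked a value in wild type FLT3 replicate 1, where its spot was marked as an outlier, and its fit rests on the other arrays. Of 23 genes of cholesterol synthesis and uptake 21 were positive, 19 on both slides, at a median of 0.73. Hmgcs1, an early enzyme of the pathway, had 0.92 (adjusted p = 0.0931) and Idi1 1.06 (adjusted p = 0.0976). In the ATF4 and amino acid response list 14 of 18 were positive, at a median of 0.53. The median was 0.92 with N51 and 0.15 with N78, and Atf4 itself had 1.91 and 0.16. Phgdh, the first enzyme of serine synthesis, had 1.02 (adjusted p = 0.0931), Pycr1 of proline synthesis 1.63 (adjusted p = 0.0662) and the stress protein Nupr1 2.87 (adjusted p = 0.138). FOXO targets leaned the other way, with 4 of 13 positive (45% of all features were) and a median of -0.35 (-0.12 with N51, -0.50 with N78). The cell death gene Bcl2l11 (BIM) had -0.85 (adjusted p = 0.207) and Sesn3 -1.09 (adjusted p = 0.234). The other Bcl2l11 probe, above background on all 8 arrays, had -0.03 (-0.26 with N51 and 0.21 with N78). Other probes of Sesn3 had -1.20 and, with a value on slide 2 alone, 1.66. Over both slides, cell cycle genes had medians near that of all features. These were -0.03 for 28 genes of G1/S and DNA replication and 0.04 for 26 of G2/M and mitosis. The slides went opposite ways: the G1/S median was -0.31 with N51 and 0.35 with N78, the G2/M median -0.19 and 0.29. All features had medians of -0.085 with N51 and -0.008 with N78. Birc5 (survivin) had -0.11.

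No gene passed among MAPK feedback genes (10 measured, median 0.21), immediate-early genes (17, -0.20), BCL2 and IAP families (15, -0.11), glycolysis and hypoxia (23, 0.01), p53 targets (17, -0.02) or haematopoietic transcription factors (19, -0.28). With arrays scaled by their medians, the medians of the immediate-early list (0.03), the BCL2 list (0.12) and the p53 list (0.22) turned positive. Among transcription factors Myb, a regulator of progenitors, came nearest, at -1.19 (SE 0.21, adjusted p = 0.0554), from 5.36 and 4.85 to 3.85 and 3.98. Cdkn1a had 0.19 and Runx1 0.36.

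The receptor of Cxcl12 was measured too, since these are the cells to which the chemokine was then given. Cxcr4 was at 3.5 and 2.75 in wild type FLT3 cells and at 2.26 and 2.05 in FLT3/ITD cells. Both FLT3/ITD arrays lay lower by this probe, but the difference of -0.97 (SE 0.41, adjusted p = 0.387) did not pass. The other Cxcr4 probe, above background on all 8 arrays, had -0.55 (-0.92 with N51 and -0.19 with N78). Its levels of 1.86 and 0.52 in wild type FLT3 and 0.94 and 0.33 in FLT3/ITD cells overlapped. Neither Ackr3, which also binds this chemokine, nor Cxcl12 had a probe above background on any array. None of 24 chemokine receptor and migration genes passed (median -0.12, and 0.12 with arrays scaled by their medians), with Rock1 at -0.47 and Ccr7 at 1.71 (adjusted p = 0.232).

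The 69 changed features had the same direction with N51 and N78, while over all features the slides were less alike. Across all features the correlation between the slides' differences was 0.359, a description across genes, which are not independent replicates. At least 2-fold in the same direction on both slides were 266 features (1.92%), 126 higher (0.91%) and 140 lower (1.01%), and at least 2-fold in opposite directions were 38 (0.274%). The Relb, F2r, Csf1 and Podxl differences were close on both slides, while Alox5 rose by 4.14 with N51 and 2.18 with N78. Mpo was 3.86 lower with N51 and 0.07 higher with N78, and Prg2 was lower by 3.73 and 0.53. The 2-fold count holds genes that missed the test, with values in wild type FLT3 and then FLT3/ITD cells in the order of the slides. Trgv2, a segment of the T cell receptor gamma locus, was at -1.54 and 0.59, then 4.20 and 3.20 (difference 4.17, adjusted p = 0.0827). Arhgap15, a GTPase-activating protein for Rac, was at least 7.05-fold higher (limma adjusted p = 0.0662), and the lysozyme Lyz1, next to Lyz2, at least 4.76-fold (limma adjusted p = 0.0850). On the lower side Olr1, the receptor for oxidised LDL, was at 1.87 and 0.84, then -1 and -1.53 (difference -2.62, adjusted p = 0.115). Ear6, an eosinophil ribonuclease, was at 3.85 and 0.45, then 0.12 and -1.97 (difference -3.07, adjusted p = 0.125). The amino acid transporter Slc7a8 was at least 5.41-fold lower (limma adjusted p = 0.0937) and the citrate transporter Slc13a5 at least 4.83-fold (limma adjusted p = 0.177). The other genes of this kind were Fabp4, Tfpi, Robo3, Fam71b, Htatip2, Grap2 and BC034090 on the higher side and 1700128A07Rik, Plekhh2, Gpr160, Ptprn, Cntnap2 and Tshr on the lower, at adjusted p of 0.0514 to 0.246.

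**Figure D3:**
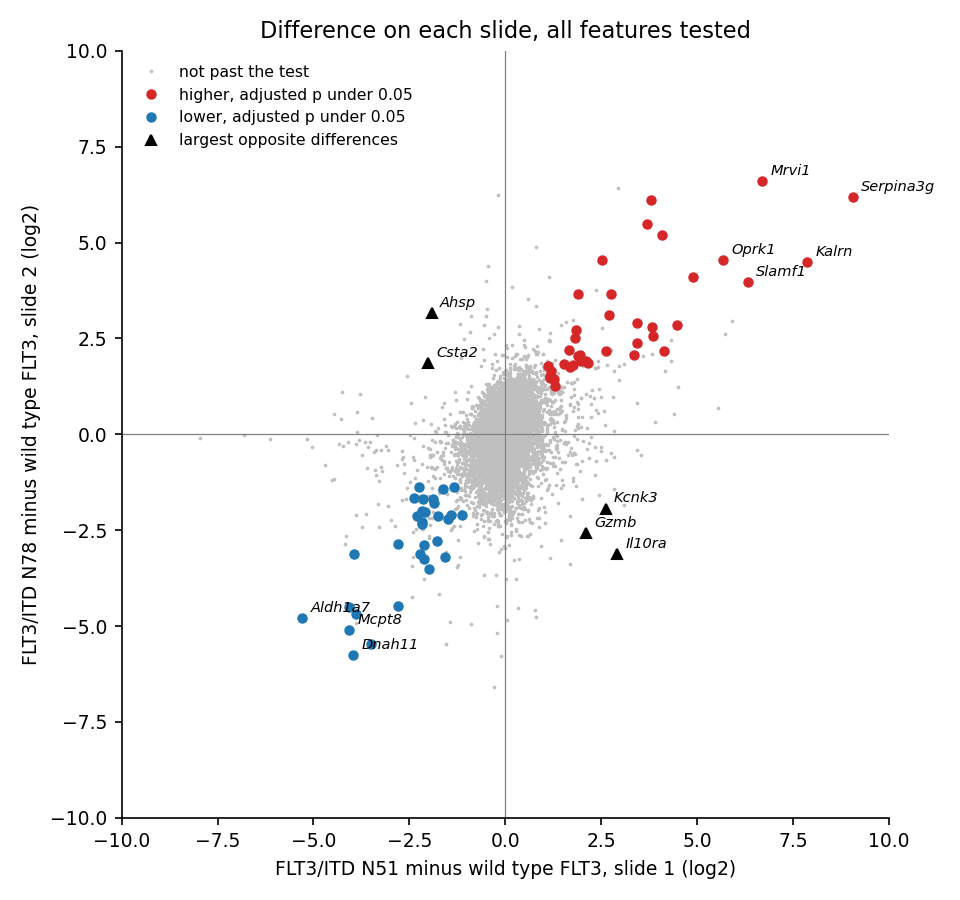
Difference of N51 from wild type FLT3 on slide 1 (x axis) against that of N78 on slide 2 (y axis), both log2, for all 13848 features. Red and blue points passed the test (38 higher, 31 lower) and black triangles are the 5 named genes with the largest opposite differences. The coloured points lie at the lower left and upper right, and most grey points lie near the centre.

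Without Cxcl12, more features were detected in wild type FLT3 cells alone than in FLT3/ITD cells alone. Well above background on both wild type FLT3 arrays and on neither FLT3/ITD array were 168 of 13848 features, against 38 the other way round. Of these, 61 were above background on both wild type FLT3 arrays and on none of the other 6 of the study, and 10 on both FLT3/ITD arrays and none of the other 6. For the arrays with Cxcl12 the order was reversed. There 1 feature was above background on both wild type FLT3 arrays alone, and 8 on both FLT3/ITD arrays alone. Beside this stand the array values: the share of probes above background was 53.4% and 55.0% in wild type FLT3 and 49.8% and 53.3% in FLT3/ITD cells. The 15155 probes never above background had a median difference of 0.44 for N51 and -0.11 for N78. The part of array background in these counts was not tested.

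The same comparison with Cxcl12 used 4 other arrays. Both settings share the cells, the 2 slides, the filter, the slide term and the estimate of the spread. The comparison with Cxcl12 is therefore not an independent repeat. There 115 features passed (0.830%), 67 higher (0.484%) and 48 lower (0.347%). Of the 69 that passed without Cxcl12, 57 passed with it too (82.6% of the 69 and 49.6% of the 115), 32 higher and 25 lower. On both slides with Cxcl12, 68 of the 69 had the direction seen without it, against 50.4% of all features. The fitted difference of Mcpt8 was -4.59 without and -4.23 with Cxcl12, and that of Clec7a -4.28 and -4.63, the latter with 1 of 2 FLT3/ITD arrays above background. Serpina3g had fitted values of 7.62 and 8.72, but no wild type FLT3 array with Cxcl12 and 1 of 2 without was above background, so these sizes are uncertain. For Pim1 and Bcl2l1 the difference passed with Cxcl12, at 2.75 (adjusted p = 0.0159) and 1.81 (adjusted p = 0.0417). The test of the difference between both settings called no feature by limma (smallest adjusted p 0.999), and 235 had an unadjusted p under 0.05. Without FLT3/ITD replicate 2 with Cxcl12 it called 20 features, and without the N78 array 7.

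The exception among the 69 was Oprk1. It was well above background on both FLT3/ITD arrays without Cxcl12 and on none of the other 6 arrays, where its levels ran from -8.01 to -5.59. With Cxcl12 both groups were below background, so no difference is given there. The test between both settings, which rests on those values, gave an adjusted p of 0.999 (unadjusted 0.000109). Oprk1 passed the filter only through the group where it was high, as did 10 of 13848 features in all. The filter favours such a difference and its unadjusted p. Id1 had 1.20 without and 3.61 (adjusted p = 0.00241) with Cxcl12, and the test between them also gave an adjusted p of 0.999 (unadjusted 0.000240).

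**Figure D4:**
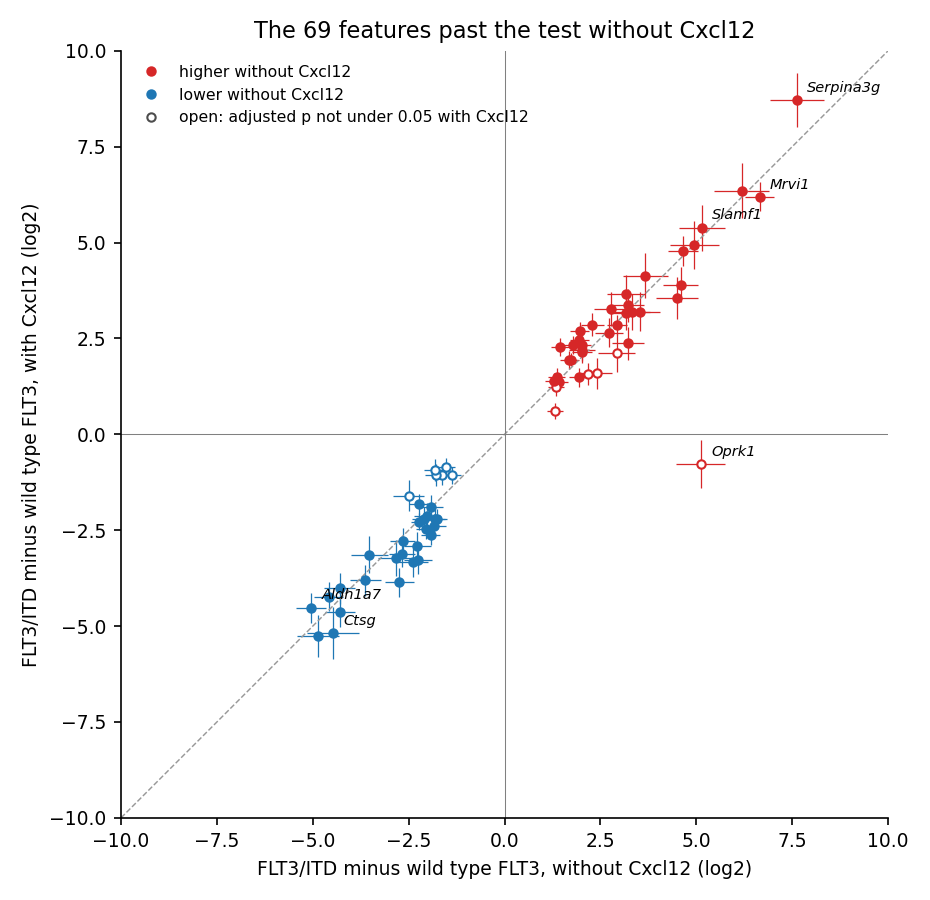
Difference between FLT3/ITD and wild type FLT3 cells without Cxcl12 (x axis) and with Cxcl12 (y axis), log2 with limma SE bars, for the 69 features that passed without Cxcl12. Open points did not pass with Cxcl12, and the dashed line marks equal differences. Points are fitted values, also where a group was not well above background. They lie along the line, apart from Oprk1, which was above background only in FLT3/ITD cells without Cxcl12.

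Changed genes lay near each other on the chromosomes more often than tested genes did. Of 61 changed genes with a place in the gene table, 15 (24.6%) had another changed gene within 5 protein-coding genes, against 2.69% of 11394 tested genes. They were the 5 protease genes of chromosome 14, Aldh1a1 and Aldh1a7, Tmem176a and Tmem176b, Serpina3f and Serpina3g, F2r and F2rl2, and Kalrn and Mylk. Within each of these 6 groups the members changed in 1 direction. Most groups are of related genes, whose mRNA can bind each other's probes. For the pairs among them that were compared, the probes that stood for the genes matched at 18 to 23 of 60 bases at their best ungapped match. Their match to the whole mRNA of the relative was not tested.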

How the data were processed

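The 8 RNA samples were labelled with Cy3 and hybridised to an Agilent mouse array each, per the labels' protocols. The deposited processed intensity of a spot had its background subtracted within its own array, per the file headers, and arrays were not scaled to each other. Agilent Feature Extraction was version 9.5.1.1 for slide 1 and 10.7.3.1 for slide 2. The authors' deposited normalized tables (signal; array medians of 6.64 log2 in the first and 0.00 to 0.01 in the second) lay within 0.01 log2 of a median scaling of these intensities for 99.7% to 99.9% of probes and served as an alternative, and the foreground and local background intensity columns of the deposited files as another.

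Here log2 of the processed intensity minus each array's 75th percentile was taken (percentiles of 367 to 1109). Control spots were left out and 93 to 203 outlier spots per array set to missing. Of 41174 probes, 21126 were kept because 1 group or more had them well above background on both of its arrays, and the brightest kept probe stood for its gene, giving 13848 features. Probes were named by accession (27285), symbol (5532) or synonym (705) in the RefSeq gene list, 1374 kept the name in the file, and 6278 had none. Probe positions are those of mm9 in the slide 2 files.

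All 8 arrays were fitted with limma 3.58.1 (R 4.3.3, data.table, version 1.17.8): 4 group means, the slide as block, eBayes with an intensity trend, 3 residual degrees of freedom and Benjamini-Hochberg adjustment over all features. Slide numbers come from the file headers. Arrays of a slide deviated together from their group means (correlations of 0.729 to 0.877), so the slide pairs the samples. Within-slide differences rest on 1 array a side and have no test. The fit was tested on simulated data for this comparison (13848 features, 100 changed 2-fold and 100 changed 4-fold): it called 36% of the 2-fold and 91% of the 4-fold changes, and 10 unchanged features. Of the 69 called features 17 had several probes, none with the opposite sign, and none had a missing or saturated spot.

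The comparison, the members of the gene lists and the tests were chosen with earlier results of these data known. Named genes are those past the test (the 15 largest each way with values), up to 10 each way that were at least 2-fold on both slides but missed it, passing list members with up to 4 examples a list, Flt3, Cxcr4, Ackr3, Cxcl12, Pim1, Pim2, Id1, Cish, Socs1, Socs2, Socs3, Bcl2l1, Ccnd2, Myc, Cdkn1a, Runx1, Rock1, Birc5, Mcpt8 and Clec7a, and the 5 with the largest opposite differences on the slides. Other genes were named after their values were seen: the flanks of the chromosome 14 stretch, Myb, Lat, Mpo, Prg2, Mitf and Cpa3. Some genes that these rules name are not reported here, though counts include them. Promoters are from RefSeq (GRCm38.p6), 1 per gene (the first listed), for 29 of 37 named genes that rose and 23 of 27 that fell. Figures were drawn with matplotlib 3.10.9 and numpy 2.4.6. Alternatives changed the block, the arrays fitted, scaling, background correction, filter, probe rule and trend, left out each array, and used the authors' tables.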

Additional observations from a re-analysis of the deposited data

Results flagged for a closer look

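The 5 named genes with the largest opposite differences on the slides were higher than wild type FLT3 with 1 ITD and lower with the other. Each slide holds 1 array a side, so these differences between N51 and N78 were not tested, and ITD type and slide cannot be told apart. Il10ra, a chain of the IL10 receptor, was 2.92 higher with N51 and 3.13 lower with N78, a gap of 6.05 on the log2 scale. Gzmb, granzyme B, had 2.12 and -2.57, a gap of 4.69, and the same signs with Cxcl12 (1.69 and -3.38). Kcnk3, a potassium channel, had 2.62 and -1.94, a gap of 4.56. Ahsp, the stabiliser of alpha haemoglobin, had -1.91 and 3.15, a gap of -5.06. Csta2, a stefin of the cystatin family, had -2.01 and 1.85, a gap of -3.86. Of these genes Gzmb and Csta2 were above background on all 4 arrays.

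For 1700128A07Rik, Cntnap2 and Tshr the FLT3/ITD arrays were lower without Cxcl12 on both slides. With Cxcl12 their values were higher on both, but all of these lay below background. The differences without less those with Cxcl12 were -3.48 (unadjusted p = 0.00164), -3.09 (unadjusted p = 0.00412) and -3.10 (unadjusted p = 0.00483). None passed limma's test of that difference, with an adjusted p of 0.999 for each. All 3 were well above background on both wild type FLT3 arrays without Cxcl12 and on none of the other 6 arrays, so the values with Cxcl12 have no measured order. This was so for 61 of 13848 features. The 3 genes passed the filter only through the group where they were high, which favours such differences and their unadjusted p.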

How the results depend on the processing

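All 69 changed features kept their direction in each alternative that measured them. Many lost their call about as often as Cma2 did. Gstm2 and Tbc1d19 lost theirs in 15 of 21 alternatives, and C3, Cat, Il12rb1, Echdc3 and Slc24a5 in 14 of 21. For Ifi47, Far2 and Med12l it was 13 of 20. The number past the test was 69 (38 higher, 31 lower). It was 0 (0 higher, 0 lower) without the replicate block on all 8 arrays, with 223 features at an unadjusted p under 0.05, and 0 (0 and 0) on the 4 arrays alone without it (137). On the 4 arrays alone with the replicate block it was 104 (51 higher, 53 lower, 61 shared). Scaling by the median gave 178 (136 higher, 68 shared) and 171 (130 higher, 68 shared) came from the deposited tables of the authors. Quantile normalization gave 33 (21 and 12, 29 shared), no filter on low values 1 (1 and 0, of 27402 features) and a filter for probes above background on all 8 arrays 33 (16 and 17, of 12020 features). Leaving out 1 array gave 9 to 82 features (3 to 45 higher, 6 to 37 lower), with the lone array of a group assumed to vary like the others. The other alternatives gave 56 to 77: normexp 74 with 36 shared, and testing named genes alone, chosen after seeing the data, 77. The causes were not tested.

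The test of the difference between cells without and with Cxcl12 called 0 features, 6 with normexp and 0 to 20 with 1 array left out (20 without FLT3/ITD replicate 2 with Cxcl12). Of genes that did not pass, Socs3 turned to 0.21 with median scaling, 0.01 with normexp and 0.21 in the authors' tables, and ran from -0.46 to 0.40 with 1 array left out. Birc5 turned to 0.12 with median scaling and 0.12 in the authors' tables, with -0.48 to 0.26. With 1 array left out Cish ran from -0.20 to 1.56 and Pim2 from -0.18 to 0.36. The gap between N51 and N78 shrank with normexp to 3.35 for Il10ra, 2.08 for Kcnk3, -0.84 for Ahsp and -2.20 for Csta2.

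With 2 arrays a group and 3 residual degrees of freedom, small differences on these arrays may miss the test. Genes near background on 1 side have uncertain sizes: 9 of the 38 that rose were not well above background on either wild type FLT3 array, and 4 of the 31 that fell on either FLT3/ITD array.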
